A study of Mus musculus with 2 samples.

Results

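Regulators of G protein signaling (Rgs genes) were described across the stromal, endothelial and blood cells of the mouse femur, for 10 genes chosen by symbol: Rgs1, Rgs2, Rgs3, Rgs4, Rgs5, Rgs16, Rgs18, Rgs10, Rgs19 and Rgs20. They are 10 of 28006 counted features, of which 24 have symbols starting with Rgs. The data were single-cell transcriptomes of Cxcl12-GFP+ cells from 2 mice at postnatal day 28, with 1 library per mouse and tamoxifen given at postnatal day 21. Both mice had the genotype Cxcl12(GFP/+); Cxcl12-iCreER; R26R(tdTomato/+), so 1 allele of the chemokine gene Cxcl12 carried the reporter in each animal. The recombinase was driven by a bacterial artificial chromosome transgene of Cxcl12, and tdTomato marks cells in which it acted and their descendants. There was 1 group and no control animal, so all comparisons were between kinds of cells within these mice. A label field on the extraction names tdTomato+ cells as the sorted population, while the other fields name GFP+ cells, and the libraries were treated here as GFP+ sorts. Blood cells that remained in such a sort are not a sample of all marrow blood cells.

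After filtering, 2750 cells of Mouse #1 and 4582 of Mouse #2 were analysed, with medians of 12966.5 and 12190 UMIs (unique molecular identifiers, 1 per captured transcript). The libraries shared 7 cell barcodes, where independent draws from the barcode list would give 1.85. Clustering, from which all Rgs genes had been left out, gave 17 clusters. Of these, 15 were named from marker lists and formed 8 classes, and 2 stayed unnamed. Stromal cells (1766 in Mouse #1 and 3532 in Mouse #2) were reticular-like, with Adipoq and Lpl, preosteoblast-like, with Alpl and Ibsp, or periosteal-like, with Clec3b and Mfap5. Endothelial-like cells (150 and 136) had Pecam1 and Cdh5. Blood cells (723 and 715) were myeloid-like, macrophage-like, lymphoid-like or erythroid-like. The macrophage-like cluster had C1qa, C1qb and C1qc, but the monocyte genes Ccr2 and F13a1 were also among its leading genes. No cluster took the mural name.

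Rgs proteins speed up the hydrolysis of GTP on the alpha subunits of heterotrimeric G proteins and thereby shorten the signal that starts at a G protein-coupled receptor. Members of the R4 subfamily are small proteins with little beyond the catalytic Rgs domain, and 7 of the 10 genes (Rgs1, Rgs2, Rgs3, Rgs4, Rgs5, Rgs16 and Rgs18) belong to it. Rgs10 belongs to the R12 subfamily, and Rgs19 and Rgs20 to the RZ subfamily. Rgs2 is known for its preference for Gq, and most other R4 members act on Gi and Gq alike. Rgs1 is known as a brake on chemokine signals in lymphocytes, Rgs18 as a regulator in platelets and myeloid cells, and Rgs5 as a marker of pericytes. In marrow, Gi-coupled chemokine receptors hold blood cells near the stromal cells that secrete Cxcl12.

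On the mm10 build, 7 of the 10 genes lie on chromosome 1. GENCODE M21 places Rgs2 at chr1:143999338-144004161, Rgs1 at chr1:144242296-144249242 and Rgs18 at chr1:144752683-144775435, all on the minus strand within 776 kb. Rgs16 lies at chr1:153740349-153745468 on the plus strand. Rgs5 (chr1:169655501-169695813, plus strand) and Rgs4 (chr1:169741477-169747642, minus strand) are neighbours that point toward each other, with 45663 bases between their ends. Rgs20 lies at chr1:4909576-5070285, Rgs19 at chr2:181688419-181693977, Rgs3 at chr4:62559847-62704001 and Rgs10 at chr7:128373621-128418758. Counted antisense genes overlap Rgs3 (Gm11209), Rgs16 (Gm28513) and Rgs20 (Gm16041 and Atp6v1h). Whether strand was used in counting was not given in the sources used here, so these 3 levels could include reads of the partner.

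RefSeq promoter windows (GRCm38.p6) were given for 7 of the 10 genes, and 4 are shown: Rgs2 and Rgs4, the genes with TGACG matches, Rgs16, which like Rgs4 was called as higher in the reticular-like class than in preosteoblast-like cells, and Rgs5, the neighbour of Rgs4. Each is the 250 bases before the transcription start, 5′ to 3′ on the strand of the gene. Capitals mark TGACG (the half-site of a cyclic AMP response element) on either strand and TATAAA (the core of a TATA box) on either strand.
Rgs2 (chr1:144004150-144004399, minus strand): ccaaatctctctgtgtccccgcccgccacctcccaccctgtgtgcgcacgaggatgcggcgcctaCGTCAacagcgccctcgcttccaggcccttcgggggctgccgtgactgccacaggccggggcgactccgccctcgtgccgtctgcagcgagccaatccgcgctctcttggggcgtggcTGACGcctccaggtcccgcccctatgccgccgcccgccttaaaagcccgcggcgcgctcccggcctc
Rgs4 (chr1:169747643-169747892, minus strand): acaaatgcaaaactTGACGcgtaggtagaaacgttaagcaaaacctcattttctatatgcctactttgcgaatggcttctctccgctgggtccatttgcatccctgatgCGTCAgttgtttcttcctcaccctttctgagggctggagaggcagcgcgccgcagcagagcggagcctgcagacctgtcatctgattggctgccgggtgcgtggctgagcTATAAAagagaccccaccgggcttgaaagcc
Rgs16 (chr1:153740103-153740352, plus strand): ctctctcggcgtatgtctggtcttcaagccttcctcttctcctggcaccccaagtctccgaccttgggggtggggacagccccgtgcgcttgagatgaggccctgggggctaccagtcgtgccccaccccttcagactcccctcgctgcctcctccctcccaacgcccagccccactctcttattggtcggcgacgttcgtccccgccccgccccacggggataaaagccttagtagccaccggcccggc
Rgs5 (chr1:169655251-169655500, plus strand): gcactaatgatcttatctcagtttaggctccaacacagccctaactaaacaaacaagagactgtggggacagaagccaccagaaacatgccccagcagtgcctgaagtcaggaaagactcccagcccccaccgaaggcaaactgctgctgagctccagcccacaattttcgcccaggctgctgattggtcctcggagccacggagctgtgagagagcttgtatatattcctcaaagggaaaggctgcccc
The Rgs2 window held 2 TGACG matches, starting 185 and 67 bases before the start, and the Rgs4 window held 2, at 236 and 141 bases. The windows of the other 5 genes held none, and 17.8% of all 32851 promoter windows of this length hold at least 1. TATAAA was in 3 of the 10 windows, 31 bases before the start of Rgs4 and 100 and 177 bases before the starts of Rgs3 (windows not shown), and 12.4% of all windows hold one. The AP-1 letters TGANTCA, present in 6.75% of all windows, were in none of the 10 windows of the 7 genes. Rgs2 had 30 CG dinucleotides in its window, Rgs16 had 17, Rgs4 had 13 and Rgs5 had 4, where the median window had 6. The matches are letters in a window and not measured binding.

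The 10 genes fell into stromal, blood and shared patterns. Levels are UMIs of the gene per 1000000 UMIs of the class (CPM), given for Mouse #1 and then Mouse #2. They are 3′ UMI counts not divided by transcript length, so they are compared within a gene only. Rgs3, Rgs4, Rgs16 and Rgs20 had their highest class mean in stromal cells (for Rgs4 the endothelial-like class overlapped it over the mice), and Rgs1, Rgs2, Rgs10, Rgs18 and Rgs19 in blood cells. With limits of 2000 genes and 10% mitochondrial UMIs per cell, the highest mean of Rgs2 was in reticular-like cells. The remaining gene, Rgs5, had no class that led in both mice. Barcodes with 1 to 100 UMIs, which hold free RNA and no cell, had 279 and 255 CPM of Rgs3, 161 and 157 of Rgs2 and 39.2 and 49.8 of Rgs4, against at most 2.33 of Rgs1 and 6.99 of Rgs18. These barcodes also had 24.5 and 17.9 CPM of Rgs10, 24.5 and 16.1 of Rgs19, 19.4 and 11.7 of Rgs16 and 14.6 and 27.2 of Rgs5. Stromal cells were below them in Rgs10 (16.8 and 14.1 CPM) and Rgs19 (11.3 and 11.9 CPM). The part of free RNA in the low levels of Rgs2, Rgs3, Rgs4, Rgs5, Rgs10, Rgs16 and Rgs19 was not tested.

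**Figure D1:**
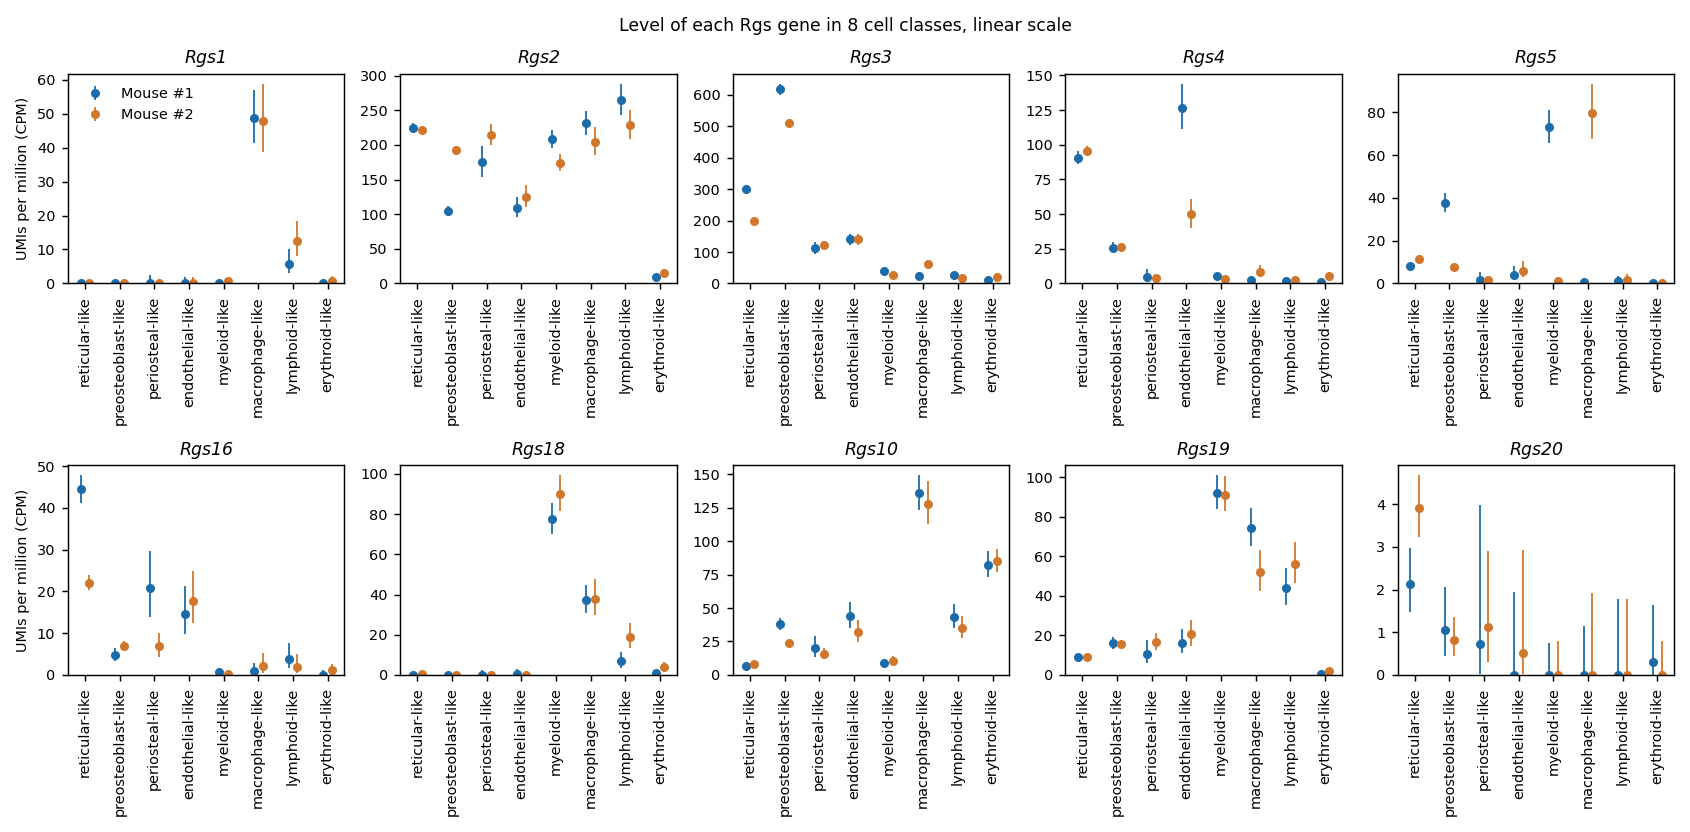
Level of each Rgs gene in 8 cell classes, in CPM on linear axes that start at 0 and differ between panels. Points are the 2 mice and bars are 95% intervals of the counts (exact Poisson). Rgs3 is highest in preosteoblast-like cells, Rgs18 and Rgs19 in myeloid-like cells, Rgs1 and Rgs10 in macrophage-like cells, and the highest Rgs5 values stand in a different class in each mouse.

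Rgs3, which in its long forms carries domains beyond the Rgs domain, differed between the stromal classes. It stood at 617 and 511 CPM in preosteoblast-like cells, 301 and 199 in reticular-like cells, 140 and 140 in endothelial-like cells and 112 and 121 in periosteal-like cells. Blood classes ranged from 11.7 CPM in erythroid-like cells of Mouse #1 to 63.5 CPM in macrophage-like cells of Mouse #2. Macrophage-like cells of Mouse #1 had 22.8 CPM. None of the 4 highest classes overlapped the next one over the 2 mice. After thinning each cell to 2000 UMIs, 62.4% and 54.0% of preosteoblast-like cells had a Rgs3 UMI, against 1.75% and 5.07% of erythroid-like cells, which had higher median depths (23808.5 and 25365.5 UMIs against 15656 and 17227).

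Within stroma, 6 of the 8 members tested differed between reticular-like and preosteoblast-like cells, where 27.8% of 13042 tested features did. Rgs4, Rgs16 and Rgs20 were higher in reticular-like cells (3 members, where 14.2% of features were higher), and Rgs3, Rgs10 and Rgs19 were higher in preosteoblast-like cells (3 members, where 13.7% of features were). Rgs1 and Rgs18, with 1 and 14 UMIs in reticular-like cells, were below the filter on low counts. The values that follow are CPM after scaling of the sums (scaled CPM), log2 fold changes with their SE, and adjusted p from edgeR's quasi-likelihood test with Benjamini-Hochberg adjustment over all tested features (n = 2 mice).

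Rgs4, a brake on Gi and Gq signals that is short-lived as a protein, had 89.1 and 94.7 scaled CPM in reticular-like cells against 24.7 and 26.8 in preosteoblast-like cells. This was a log2 fold change of 1.83 ± 0.12 (adjusted p = 1.06e-04), and the mice gave 1.85 and 1.82. Rgs16, an inducible R4 member, had 43.8 and 22.0 scaled CPM in reticular-like cells against 4.49 and 6.92. Its log2 fold change was 2.46 ± 0.44 (adjusted p = 0.00636), with 3.28 in Mouse #1 and 1.67 in Mouse #2. Both genes separated the classes in both mice, Rgs4 with nearly the same size in each and Rgs16 with a wider spread.

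Rgs3 went the other way, with 297 and 197 scaled CPM in reticular-like cells against 590 and 514 in preosteoblast-like cells (log2 fold change -1.16 ± 0.19, adjusted p = 0.00472). Rgs10 had 6.47 and 8.33 scaled CPM against 36.5 and 24.0 (-2.0 ± 0.23, adjusted p = 9.98e-04). Rgs19 had 9.05 and 9.25 scaled CPM against 15.4 and 15.5 (-0.75 ± 0.17, adjusted p = 0.0168). Rgs20, an RZ member, was sparse, with 2.10 and 3.88 scaled CPM in reticular-like cells against 1.00 and 0.81 (1.77 ± 0.43, adjusted p = 0.0199). Its 180 stromal UMIs came to at most 2 in any cell.

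Rgs2 did not pass the test. It had 221 and 221 scaled CPM in reticular-like cells, and 100 in Mouse #1 against 193 in Mouse #2 in preosteoblast-like cells (0.58 ± 0.27, adjusted p = 0.151). With the mouse as a block, the difference was 0.65 with an adjusted p of 0.0352, in a fit that called 32.8% of features. The 2 mice differed in preosteoblast-like cells by more than they did in reticular-like cells.

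**Figure D2:**
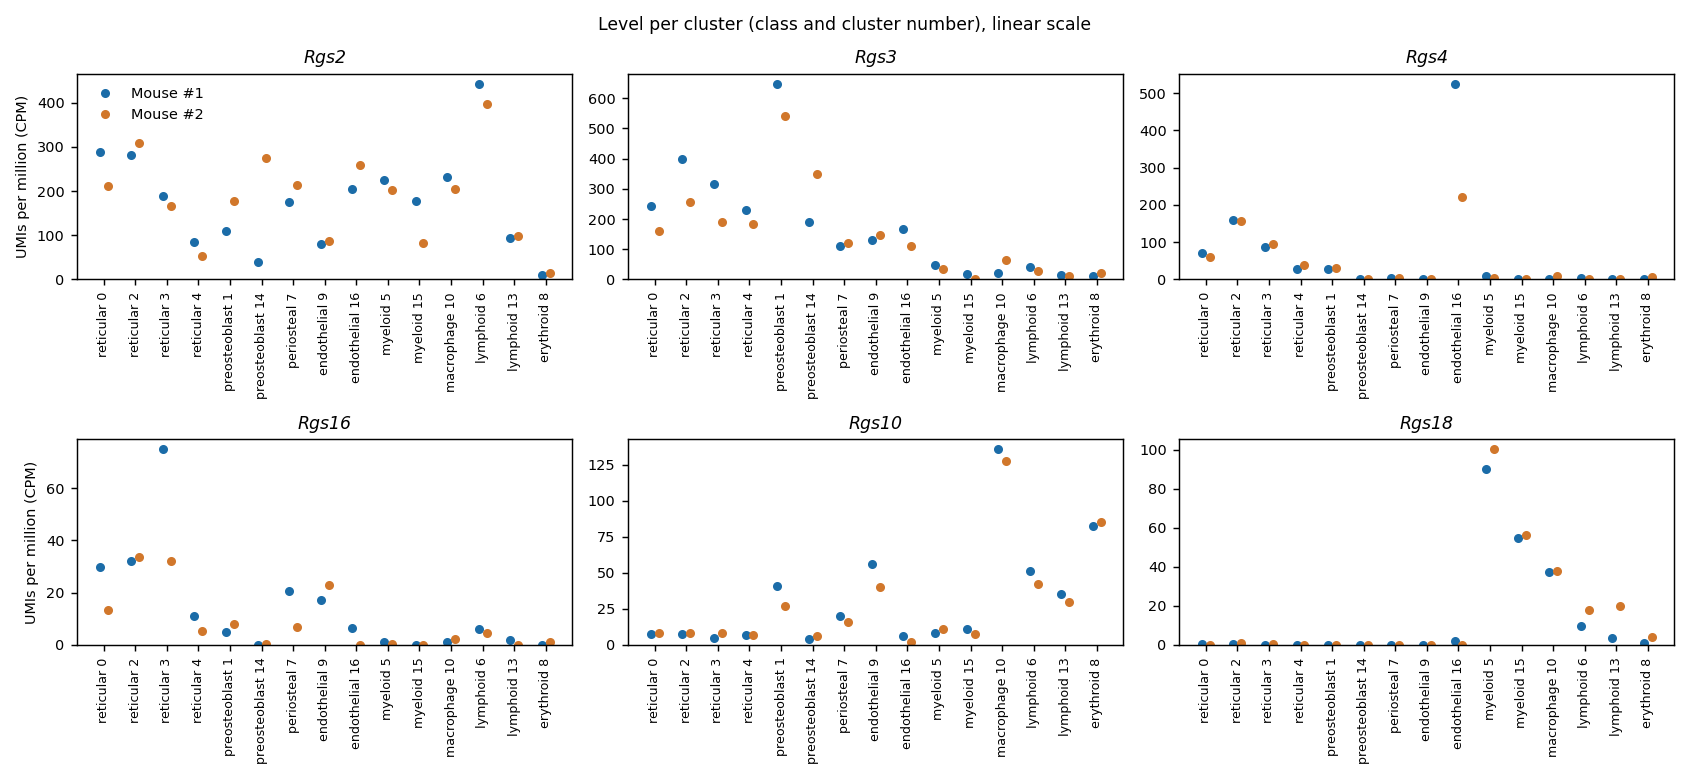
Level of 6 Rgs genes in the 15 named clusters, in CPM on linear axes that start at 0. Points are the 2 mice, and labels give the class and the cluster number. Rgs4 is at 525 and 220 CPM in endothelial cluster 16 and near 0 in endothelial cluster 9, and Rgs2 is highest in lymphoid cluster 6.

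The reticular-like class held 4 clusters, and the R4 members varied among them. Levels by cluster are a description, with no test. Cluster 2, with heat shock and Cyr61 genes among its leaders, had the most Rgs4 (160 and 158 CPM), and cluster 4, led by Bmp4 and Rspo2, had the least (28.6 and 38.8 CPM). Rgs2 was at 282 and 308 CPM in cluster 2 and at 84.0 and 53.2 CPM in cluster 4. Rgs3 was at 398 and 255 CPM in cluster 2, at 315 and 192 CPM in cluster 3, at 242 and 162 CPM in cluster 0 and at 229 and 184 CPM in cluster 4.

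Rgs16 was at 74.9 CPM in Mouse #1 and 32.2 CPM in Mouse #2 in cluster 3, which was led by the immediate early genes Egr1 and Fos. It stood at 32.3 and 33.5 CPM in cluster 2, at 29.7 and 13.3 CPM in cluster 0 and at 11.0 and 5.44 CPM in cluster 4. Egr1, a transcription factor that rises within minutes of a stimulus or of tissue dissociation, was at 2063 and 1386 CPM in cluster 3, at 1270 and 1467 CPM in cluster 2, at 165 and 188 CPM in cluster 0 and at 96.4 and 109 CPM in cluster 4. In each mouse the reticular-like cluster with the most Rgs16 was the one with the most Egr1, cluster 3 in Mouse #1 and cluster 2 in Mouse #2. The 10 immediate early genes together summed to 18953 and 13748.9 CPM in cluster 3 and to 13630.5 and 13475.3 CPM in cluster 2. By that sum cluster 3 led in both mice, so the match with Rgs16 held in Mouse #1 only. Rgs2 was at 189 and 165 CPM in cluster 3, below clusters 0 and 2. The part of the immediate early response in these levels was not tested. Without cluster 3, a setting chosen after seeing the data that keeps cluster 2, the same 6 of 8 members were called against preosteoblast-like cells. That edgeR fit called 3484 of 12670 features, and Rgs16 was at 1.94 (adjusted p = 0.00725).

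Preosteoblast-like cells were nearly all in cluster 1 (417 and 803 cells). Cluster 14, led by the osteoblast genes Bglap and Ifitm5 (14 and 61 cells), had Rgs3 at 189 and 348 CPM against 648 and 541 CPM in cluster 1. It had Rgs10 at 3.83 and 5.86 CPM against 40.6 and 27.3 CPM. Rgs4 was at 0 and 0.73 CPM there, against 27.7 and 31.5 CPM in cluster 1. All 3 genes were lower in the cluster with mature osteoblast genes in both mice, and Rgs2 (40.2 and 275 CPM) had no common direction.

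Between periosteal-like and reticular-like cells, 3 of the 8 tested members differed, where 20.9% of all tested features did. Of these, 1 was higher in periosteal-like cells (11.7% of features) and 2 were lower (9.26%). Rgs4 had 5.17 and 3.82 scaled CPM in periosteal-like cells against 89.1 and 94.7 in reticular-like cells. The log2 fold change of -4.44 ± 0.18 (edgeR, adjusted p = 1.68e-05) was the largest in size of the 8 in this comparison. Rgs3 was lower in periosteal-like cells as well, with 115 and 126 scaled CPM against 297 and 197 (-1.03 ± 0.20, adjusted p = 0.0109). Rgs10 was higher, with 20.7 and 16.2 scaled CPM against 6.47 and 8.33 (1.25 ± 0.29, adjusted p = 0.0219).

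Rgs2 had 181 and 222 scaled CPM in periosteal-like cells and 221 and 221 in reticular-like cells, so the classes overlapped (adjusted p = 0.794). Rgs16 had 21.4 and 7.05 scaled CPM against 43.8 and 22.0 (-1.45 ± 0.53, adjusted p = 0.0982). With the mouse as a block it was called, at -1.35 and an adjusted p of 0.0477, in a fit that called 23.3% of features. Rgs19 (0.70 ± 0.21, adjusted p = 0.0542) and Rgs20 (-1.54 ± 0.63, adjusted p = 0.127) did not pass.

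Endothelial-like cells had less Rgs3 and Rgs2 than stromal cells and more Rgs10 and Rgs19. These 4 of 10 members were called, where 43.9% of 14189 tested features were (2 higher against 21.4% of features, and 2 lower against 22.5%). Rgs3 had 123 and 127 scaled CPM in endothelial-like cells against 362 and 286 in stromal cells (-1.37 ± 0.15, adjusted p = 4.21e-04). Rgs2 had 96.6 and 114 scaled CPM against 174 and 202 (-0.84 ± 0.16, adjusted p = 0.00509). Rgs10 had 38.8 and 29.1 scaled CPM against 15.8 and 13.5 (1.22 ± 0.17, adjusted p = 0.00136). These 3 genes separated the groups in both mice.

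Rgs19, which is also known as GAIP for its interaction with Gi alpha 3, had 14.3 and 18.6 scaled CPM in endothelial-like cells against 10.7 and 11.3 (0.58 ± 0.17, adjusted p = 0.0335). With the mouse as a block its adjusted p was 0.0508, in a fit that called 43.3% of features, so the call depended on the block. Rgs16 had 12.9 and 16.2 scaled CPM in endothelial-like cells against 29.3 and 15.2 in stromal cells, with no common direction (-0.60 ± 0.39, adjusted p = 0.25). Rgs20 had 1 UMI in 286 endothelial-like cells, and its ratio of stromal to endothelial CPM was 8.98 (95% counting interval 1.59 to 357, edgeR adjusted p = 0.0543). Rgs1 and Rgs18 had at most 1 UMI there.

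Rgs4 did not differ between the compartments by the test (0.33 ± 0.36, adjusted p = 0.496), and its endothelial UMIs were unevenly placed. Cluster 9, led by Ly6c1, Cav1 and the arterial gene Gja4 among others (122 and 109 cells), had 0 and 0.68 CPM. Cluster 16, with the sinusoid genes Stab2 and Flt4 (28 and 27 cells), had 525 and 220 CPM, above every other cluster in both mice. After thinning, 53.6% and 33.3% of cluster 16 cells had a Rgs4 UMI and 0 of 122 and 0 of 109 cells of cluster 9 did, which allows shares of up to 2.46% and 2.75%. The 5 cells with the most held 53.7% and 52.6% of the endothelial Rgs4 UMIs.

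Rgs10 had the opposite placement, at 56.0 and 40.5 CPM in cluster 9 and at 6.51 and 2.34 CPM in cluster 16. Rgs16 was also higher in cluster 9 (17.3 and 23.0 CPM) than in cluster 16 (6.51 and 0 CPM), and Rgs2 was lower there (79.5 and 87.1 against 204 and 258 CPM). Cluster 16 also had the channel genes Kcnj8 (434 and 687 CPM) and Abcc9 (809 and 736 CPM), which are on the mural marker list, while the contractile mural genes Acta2 and Myh11 were at most at 4.69 CPM and Cspg4 had 0 UMIs. All 8 mural genes, which also include Tagln, Notch3 and Mcam, summed to 297 and 363 CPM in cluster 9 and to 1373 and 1576 CPM in cluster 16. What part other cells had in the Rgs4 level of cluster 16 was not tested. No test was run between these clusters, since the comparisons had been fixed by class.

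**Figure D3:**
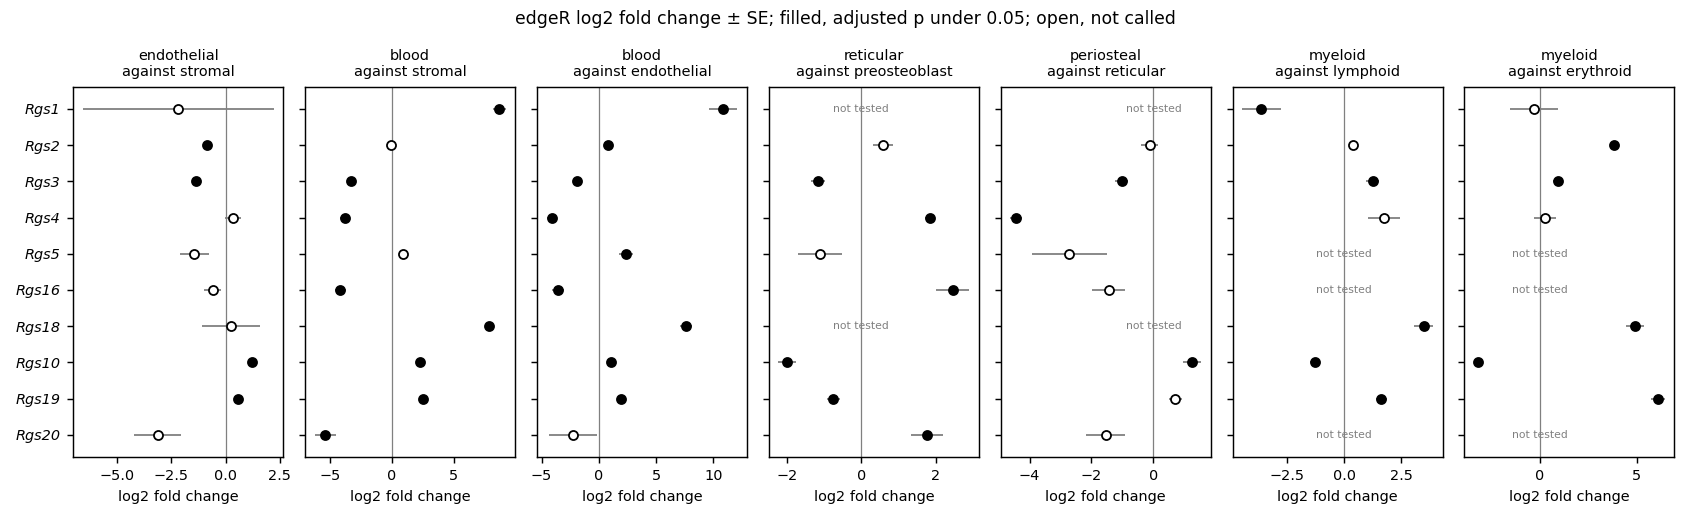
Log2 fold change of each Rgs gene with its SE from edgeR in 7 comparisons between kinds of cells, 2 mice each. Filled points passed an adjusted p of 0.05 and open points did not. Rgs3, Rgs4 and Rgs16 lie left of 0 in both blood comparisons, while Rgs18, Rgs10 and Rgs19 lie right of it.

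Blood cells differed from stromal cells in 8 of the 10 members, where 73.4% of 14189 tested features were called. Rgs1, Rgs18, Rgs10 and Rgs19 were higher (4 members, against 35.4% of features) and Rgs3, Rgs4, Rgs16 and Rgs20 were lower (4 members, against 38.0%). With library totals in place of TMM scaling, 36.8% rather than 48.2% of the called features were higher. The same 8 members were called there, with 10478 of 14189 features. Against endothelial-like cells 9 members were called, where 58.6% of features were: 6 were higher (30.9% of features) and 3 were lower (27.6%). There 36.0% rather than 52.8% of the called features were higher with library totals. The 6 higher members included Rgs2, whose call was lost with library totals and with limits of 2000 genes and 10% mitochondrial UMIs per cell. They also included Rgs5, of which 1 cell in each mouse held 98.1% and 89.6% of the blood UMIs. Both comparisons share the blood sums.

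Rgs18 had 44.0 and 50.2 scaled CPM in blood cells against 0.11 and 0.24 in stromal cells (7.86 ± 0.27, adjusted p = 1.86e-06). It was spread over the cells, with 237 of 723 and 218 of 715 blood cells positive and at most 18 UMIs in a cell. Against endothelial-like cells, which had 1 UMI in all, the ratio of CPM was 152 (95% counting interval 27.2 to 6003).

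Rgs1 had 294 UMIs in blood cells against 2 in stromal and 0 in endothelial-like cells. The ratio to stromal cells was 419 (95% counting interval 115 to 3473), and blood was at least 13.9-fold higher than endothelial-like cells when 3 counts over the group are set as the floor. Its blood UMIs lay in 30 cells of Mouse #1 and 24 of Mouse #2, and the 5 cells with the most held 50.3% and 69.6% of them. By class it was at 48.7 and 47.9 CPM in macrophage-like cells and 5.76 and 12.6 CPM in lymphoid-like cells, and every other class was below 1 CPM.

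Rgs10 had 71.7 and 69.7 scaled CPM in blood cells against 15.8 and 13.5 in stromal cells (2.28 ± 0.14, adjusted p = 1.65e-05). Rgs19 had 66.5 and 59.4 scaled CPM against 10.7 and 11.3 (2.52 ± 0.13, adjusted p = 7.17e-06). Both were also higher than in endothelial-like cells, by 1.06 ± 0.16 (adjusted p = 0.00141) and 1.94 ± 0.16 (adjusted p = 8.34e-05) on the log2 scale. Within blood the 2 genes had different orders. Rgs19 was highest in myeloid-like cells (92.1 and 91.3 CPM), and Rgs10 in macrophage-like cells (136 and 128 CPM) and then erythroid-like cells (82.4 and 85.3 CPM). Not all blood classes were high. Myeloid-like cells had 9.05 and 10.4 CPM of Rgs10, below every class but the reticular-like one (6.58 and 8.37 CPM). Erythroid-like cells had 0.29 and 1.96 CPM of Rgs19, below every stromal class and the endothelial-like class.

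Rgs3 was lower in blood cells, with 30.5 and 34.7 scaled CPM against 362 and 286 in stromal cells (-3.31 ± 0.15, adjusted p = 4.75e-06). Rgs4 had 3.54 and 5.61 scaled CPM against 62.4 and 62.8 (-3.78 ± 0.42, adjusted p = 1.95e-04). Rgs16 had 1.18 and 1.29 scaled CPM against 29.3 and 15.2 (-4.16 ± 0.43, adjusted p = 1.33e-04). Rgs20 had 1 blood UMI, a ratio of stromal to blood CPM of 63.2 (95% counting interval 11.2 to 2510). The blood levels of Rgs3, Rgs4 and Rgs16 were below their levels in the barcodes of free RNA.

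Rgs2 was shared by the 3 compartments, with 199 and 160 scaled CPM in blood, 174 and 202 in stromal and 96.6 and 114 in endothelial-like cells. Blood and stromal cells overlapped (-0.07 ± 0.15, adjusted p = 0.687), and blood exceeded endothelial-like cells (0.77 ± 0.16, adjusted p = 0.00506), a call that was lost with library totals in place of scaling (0.37, adjusted p = 0.0874). Its order over classes ran from lymphoid-like cells (265 and 229 CPM) to erythroid-like cells (9.96 and 15 CPM). From the second to the seventh class of that order, each class overlapped the next over the mice.

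Within blood, 5 of 7 tested members differed between myeloid-like and lymphoid-like cells, where 38.1% of 11415 tested features did (3 higher in myeloid-like cells against 21.3% of features, and 2 lower against 16.8%). With library totals in place of TMM scaling, 19.0% rather than 55.8% of the called features were higher, and the median over all features moved from -0.01 to -0.77 on the log2 scale. Rgs18 had 88.0 and 108 scaled CPM in myeloid-like cells against 4.54 and 13.3 in lymphoid-like cells (3.46 ± 0.41, adjusted p = 1.55e-04). Rgs19 had 104 and 109 against 29.8 and 39.5 (1.63 ± 0.24, adjusted p = 6.37e-04). Rgs3 was also called, with 43.5 and 32.5 against 18.8 and 12.9 (1.26 ± 0.28, adjusted p = 0.00663), but its call was lost with library totals in place of scaling (0.50, adjusted p = 0.214).

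Rgs1 and Rgs10 were lower in myeloid-like cells. Rgs1 had 0.23 and 0.78 scaled CPM against 3.89 and 8.85 in lymphoid-like cells (-3.61 ± 0.84, adjusted p = 0.00775), and with limits of 2000 genes and 10% mitochondrial UMIs per cell it was below the filter on low counts and was not tested. Rgs10 had 10.3 and 12.5 against 29.2 and 24.9 (-1.25 ± 0.21, adjusted p = 0.00141). Of the lymphoid-like clusters, cluster 6 with the B cell gene Ms4a1 had Rgs2 at 443 and 396 CPM and cluster 13 with Vpreb1 and Dntt had it at 94.9 and 99.4 CPM. Rgs2 itself did not pass between the classes (0.39 ± 0.17, adjusted p = 0.103), and with library totals in place of scaling its sign turned.

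Against erythroid-like cells, myeloid-like cells also differed in 5 of 7 tested members, where 54.8% of features did (4 higher against 28.3%, and 1 lower against 26.5%). Rgs19 had 104 and 109 scaled CPM against 0.395 and 2.29 (6.09 ± 0.37, adjusted p = 1.3e-06). Rgs2 had 235 and 209 against 13.4 and 17.6 (3.82 ± 0.20, adjusted p = 7.54e-07). Rgs18 had 88.0 and 108 against 1.18 and 4.58 (4.93 ± 0.48, adjusted p = 2.13e-05). Rgs10 was the member higher in erythroid-like cells, with 10.3 and 12.5 against 111 and 99.5 (-3.21 ± 0.20, adjusted p = 1.53e-06). Rgs3 was higher in myeloid-like cells by 0.93 ± 0.27 (adjusted p = 0.0161, and 0.0659 with limits of 2000 genes and 10% mitochondrial UMIs per cell).

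Rgs5 had many of its UMIs in a few cells. Of its 1653 UMIs in Mouse #1, 7 of 2750 cells with 10 or more UMIs held 93.3%, and of its 660 UMIs in Mouse #2, 6 of 4582 cells held 51.5%. The cell with the most had 848 Rgs5 UMIs among 80171 and lay in unnamed cluster 12. It had UMIs of all 8 mural marker genes, 373 of Acta2 (smooth muscle actin) and 47 of Notch3 among them. A cell in myeloid-like cluster 5 had 361 Rgs5 UMIs with 3976 of the neutrophil gene S100a8. It also had 56 UMIs of mural genes, from 6 of the 8. A cell in macrophage-like cluster 10 had 147 Rgs5 UMIs among 233322, with 2868 eGFP and 2736 S100a8 UMIs. It had 90 UMIs of mural genes, from all 8. A cell in preosteoblast-like cluster 1 had 224 Rgs5 UMIs among 11517 and UMIs of all 8 mural genes.

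In some classes most Rgs5 UMIs lay in 1 such cell. That cell held 361 of 364 UMIs in myeloid-like cells of Mouse #1 and 147 of 153 in macrophage-like cells of Mouse #2. Rgs5 was at 73.2 CPM in myeloid-like cells of Mouse #1 and 1.30 CPM in those of Mouse #2, and at 0.62 and 79.6 CPM in macrophage-like cells. In reticular-like cells it was at 8.16 and 11.4 CPM and in endothelial-like cells at 4.19 and 5.77 CPM. Blood cells had more Rgs5 than endothelial-like cells by the test (2.37 ± 0.63, adjusted p = 0.0164). With limits of 2000 genes and 10% mitochondrial UMIs per cell, edgeR called it in the opposite direction (-6.43, adjusted p = 0.00694). Without the 13 cells the log2 value was -2.04. The 13 cells were picked on their own Rgs5 counts after seeing the data, so each value without them is a description, with no test. Against stromal cells the value went from 0.93 ± 0.37 (adjusted p = 0.0593, and 0.00409 with the mouse as a block, in a fit that called 74.3% of features) to -2.03.

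Between endothelial-like and stromal cells Rgs5 differed by -1.45 ± 0.66 (adjusted p = 0.121, and 0.016 with the mouse as a block), and by 0.02 without the 13 cells. Between reticular-like and preosteoblast-like cells it differed by -1.1 ± 0.59 (adjusted p = 0.213), and by 1.85 without them. Between periosteal-like and reticular-like cells it differed by -2.72 ± 1.21 (adjusted p = 0.157), and by -2.13 without them.

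**Figure D4:**
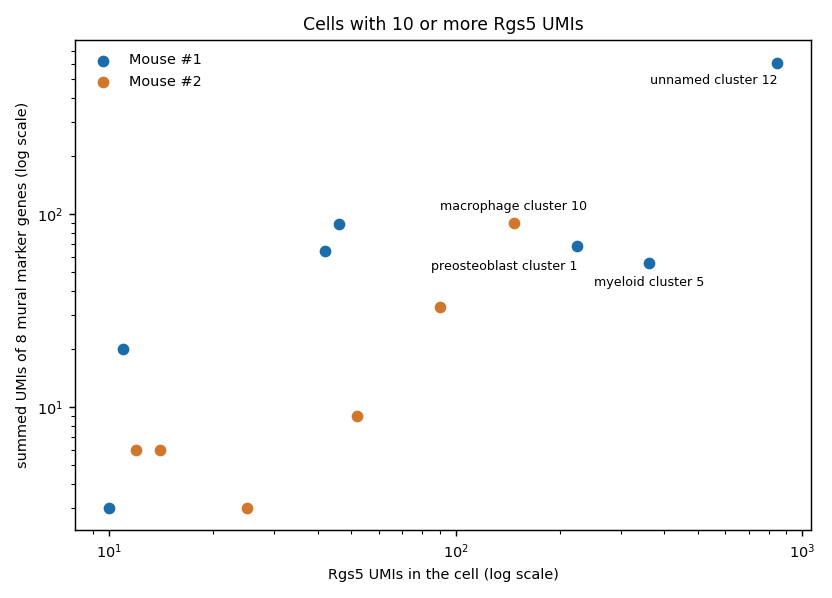
The 13 cells with 10 or more Rgs5 UMIs, with Rgs5 UMIs on a logarithmic horizontal axis and the summed UMIs of 8 mural marker genes on a logarithmic vertical axis. Each point is 1 cell, coloured by mouse, and cells above 100 Rgs5 UMIs carry the class of their cluster. The cell of cluster 12 with 848 Rgs5 UMIs also has the most mural UMIs, at 609.

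In the reticular-like class, cells were called tdTomato-positive above the 99th percentile of blood cells of their mouse, which gave 499 and 982 positive and 759 and 1455 negative cells. This comparison asks whether Rgs levels differed between reticular-like cells with the label and those in which it was not called. No member of the 8 tested passed in edgeR's test (0 of 12196 features, with 469, or 3.85%, at an unadjusted p under 0.05, and 5 by DESeq2, none a member). Rgs2 had 186 and 197 scaled CPM in positive cells against 249 and 239 in negative cells (-0.35 ± 0.08, adjusted p = 0.982, lower in positive cells in 2 of 2 mice). Rgs4 had 113 and 101 against 75.6 and 91.5 (0.35 ± 0.12, adjusted p = 0.982, higher in 2 of 2 mice).

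Positive and negative cells of a pair came from the same animal. With the mouse as a block, 2.66% of the 12196 features were called and 2 members were among them (1.32% of features were higher and 1.34% lower), Rgs2 at -0.35 (adjusted p = 0.00279) and Rgs4 at 0.33 (adjusted p = 0.0354). The other 6 tested members were not called in that fit, with adjusted p from 0.231 to 0.951.

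Within the 4 reticular-like clusters of the 2 mice, Rgs2 was lower in positive cells in 8 of 8 pairs, by 0.06 to 1.32 on the log2 scale. Rgs4 was higher in 7 of 8 pairs, from -0.02 to 0.74. Rgs3 was lower in 8 of 8 pairs, by 0.05 to 0.49, although it was not called in either fit. Cells of 1 mouse share their library, so these pairs are a description with no test. Cluster 4, with the least Rgs2 and Rgs4 of the 4, made up 11.8% and 8.66% of positive cells against 22.4% and 15.1% of negative cells. Mean depth was 13248 and 12382 UMIs in positive and 12921 and 12409 UMIs in negative cells. The 10 immediate early genes summed to 10522 and 8111 CPM with the label and to 11639 and 8641 CPM without it, and the part of these differences in the Rgs values was not tested.

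**Figure D5:**
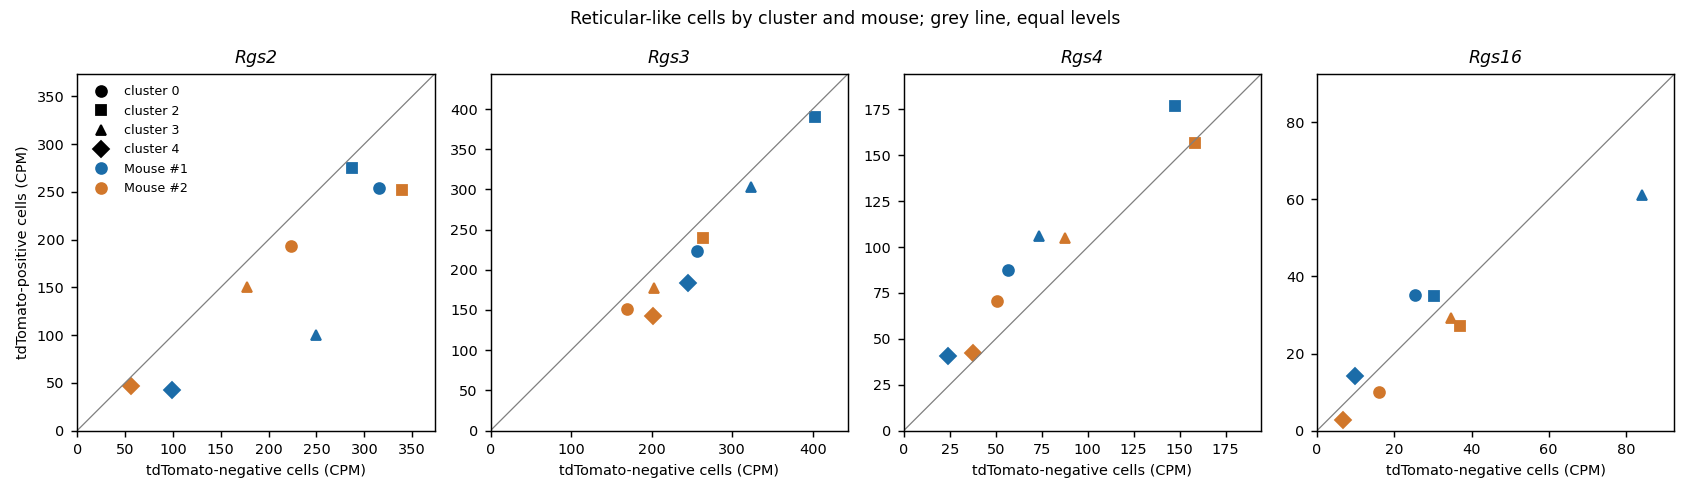
Rgs2, Rgs3, Rgs4 and Rgs16 in tdTomato-positive (vertical axis) against tdTomato-negative (horizontal axis) reticular-like cells, in CPM on linear axes. Each point is 1 cluster of 1 mouse, with the shape giving the cluster, the colour the mouse, and the grey line equal levels. All 8 points of Rgs2 and of Rgs3 lie below the line, and 7 of 8 points of Rgs4 lie above it.

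The partners of Rgs proteins were described from lists that had been chosen with earlier results of these data known. Shares of all features called are given for comparison. Of 16 alpha subunit genes, 12 could be tested between compartments, and the 12 differed between endothelial-like and stromal cells (43.9% of all features did), 10 higher and 2 lower in endothelial-like cells (median log2 fold change 0.95 against -0.11 over all features). With the mouse as a block, Gnal lost its call (adjusted p = 0.0826). Gnat1, a transducin known from rod cells, had 16 UMIs in endothelial-like and 1 in stromal cells, Gna15 was higher by 4.52 and Gnao1 stood at -3.94. In blood against stromal cells 2 rose and 6 fell, or 66.7% called where 73.4% of all features were (median -0.60 against -0.05), among them Gna15 at 7.68, Gnai1 at -3.55 and Gnao1 at -3.15. In blood against endothelial-like cells 1 rose and 8 fell, or 75% where 58.6% of all features were called (median -1.20 against 0.11), among them Gna15 at 3.17, Gna11 at -2.58 and Gnat1 with 0 UMIs in blood. The alpha subunits are the direct substrates of Rgs proteins, and Gna15 is a member of the Gq group known mainly from blood cells.

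Within stroma, 1 of 11 tested alpha subunits, Gnao1, differed between reticular-like and preosteoblast-like cells (1.35 higher in reticular-like cells), where 27.8% of all features did. Between periosteal-like and reticular-like cells 3 rose and 1 fell of 11 (36.4% against 20.9% of all features), with Gna14 at 3.63, Gnai1 at -2.32 and Gnas at 1.16. In myeloid-like against lymphoid-like cells 5 rose and 1 fell of 10 (60% against 38.1% of all features), with Gna15 at 2.98, Gnaq at 1.59 and Gnai2 at 1.43, but with library totals 2 rose and 2 fell. In myeloid-like against erythroid-like cells 4 rose of 10 and none fell (40% against 54.8% of all features), with Gnaq at 2.78, Gnai3 at 2.25 and Gnai2 at 1.67.

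Of 5 beta subunit genes 3 could be tested. In endothelial-like against stromal cells 2 rose, as 21.4% of all features did, Gnb1 at 1.14 and Gnb2 at 0.41. In blood against stromal cells, where 73.4% of all features were called, Gnb2 rose by 0.59 (adjusted p = 0.0541 with library totals) while Gnb4 (-1.75) and Gnb1 (-0.29) fell. In blood against endothelial-like cells, where 58.6% of all features were called, Gnb4 (-2.32) and Gnb1 (-1.43) fell. None of the 3 differed between reticular-like and preosteoblast-like cells, where 27.8% of all features did. Gnb4 rose in periosteal-like against reticular-like cells by 0.78, where 20.9% of all features were called. Gnb2 rose in myeloid-like against lymphoid-like cells by 0.95 (adjusted p = 0.335 with library totals), where 38.1% of all features were called. In myeloid-like against erythroid-like cells, where 54.8% were called, Gnb2 (0.71) and Gnb1 (0.47) rose.

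Of 19 G protein-coupled receptor genes, all were tested between compartments, and 9 rose and 7 fell in endothelial-like against stromal cells (84.2% called against 43.9% of all features, median 1.07 against -0.11), where Cxcr4 was at 6.90 and Ednrb at 6.87, and Cx3cr1 had 0 UMIs in endothelial-like and 79 in stromal cells. In blood against stromal cells 7 rose and 9 fell (84.2% against 73.4%, median -1.10 against -0.05), led by Cxcr2 at 9.18, Ccr2 at 8.77 and Cxcr4, the receptor of Cxcl12, at 7.25. In blood against endothelial-like cells 6 rose and 7 fell (68.4% against 58.6%), with 563 UMIs of Cx3cr1, 2078 of Cxcr2 and 1731 of Ccr2 in blood against 0, 1 and 1 in endothelial-like cells. In reticular-like against preosteoblast-like cells 6 of 16 rose and 2 fell (50% against 27.8%), with Ackr3 at -4.0, Calcrl at 2.86, and 77 UMIs of Cx3cr1 in reticular-like against 0 in preosteoblast-like cells. In periosteal-like against reticular-like cells 7 of 16 rose and 2 fell (56.2% against 20.9%), with the scavenging Cxcl12 receptor Ackr3 at 6.86, F2r at 1.96 and C5ar1 at -1.94 (adjusted p = 0.0934 by DESeq2). In myeloid-like against lymphoid-like cells 5 of 12 rose and 1 fell (50% against 38.1%), and against erythroid-like cells 7 of 12 rose (58.3% against 54.8%), led in both by Cxcr2, C5ar1 and Ccr2.

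Among other Rgs genes, Rgs14 of the R12 subfamily was higher in blood than in stromal cells by 6.98, than in endothelial-like cells (413 against 2 UMIs), and in myeloid-like than in lymphoid-like cells by 2.48 and erythroid-like cells by 5.42. Rgs12 was higher in endothelial-like than in stromal cells by 1.41, in blood than in stromal cells by 0.50 (adjusted p = 0.271 with library totals), and lower in blood than in endothelial-like cells by -0.91. It was lower in myeloid-like than in lymphoid-like cells by -1.13 and erythroid-like cells by -3.35. Of 6 genes of the R7 group (4 Rgs genes and 2 anchor genes), 2 were tested between compartments, and Rgs9 was higher in endothelial-like than in stromal cells by 4.33 and lower in blood than in endothelial-like cells (2 against 8 UMIs). Compared with preosteoblast-like cells, reticular-like cells had less Rgs7bp (-2.17) and less Rgs13 of the R4 subfamily (-3.41). Rgs8, Rgs21 and Rgs17 passed the filter on low counts in no comparison. Shares of all features called were 43.9% in endothelial-like against stromal cells, 73.4% in blood against stromal cells and 58.6% in blood against endothelial-like cells. They were 38.1% in myeloid-like against lymphoid-like cells, 54.8% in myeloid-like against erythroid-like cells and 27.8% in reticular-like against preosteoblast-like cells.

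Of 10 immediate early genes, 9 fell in blood against stromal cells, as 38.0% of all features did (led by Egr1 at -3.23, Fosb at -2.84 and Jun at -2.51), and all 10 fell against endothelial-like cells, as 27.6% of features did (led by Ier3, Atf3 and Fosb). In endothelial-like against stromal cells 4 rose and 2 fell (60% called against 43.9% of all features), with Ier3 at 1.91, Jun at -1.12 and Ier2 at 1.1. The call of Egr1, which was lower, was lost with library totals (adjusted p = 0.0724) and by DESeq2 (adjusted p = 0.0633), and with either 5 rose and 1 fell. In reticular-like against preosteoblast-like cells 7 rose where 14.2% of all features did (10 by DESeq2, with Junb and Jun at 1.44 and Nr4a1 at 1.41), in the comparison in which Rgs16 and Rgs4 were also higher, and in periosteal-like against reticular-like cells none was called (2 at an unadjusted p under 0.05, and 1 by DESeq2). In myeloid-like cells 7 rose against lymphoid-like cells where 21.3% of all features did (4 with library totals), led by Atf3, Dusp1 and Fos, and 6 against erythroid-like cells where 28.3% did (led by Fos, Nr4a1 and Ier2). Unlike the other lists, these genes had taken part in the clustering. No gene of these lists was called between tdTomato-positive and tdTomato-negative cells by edgeR without the block, where 1 receptor and 0 immediate early genes had an unadjusted p under 0.05. With the block, Calcrl was called higher in positive cells (0.49, adjusted p = 0.0404) and Fos lower (-0.23, adjusted p = 0.0164).

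Likeness was read as Pearson's r of log2(CPM + 1) across 32 sums, 16 clusters in each of 2 mice, over 7440 genes. It is a description over sums that share libraries, with no test. Rgs18 was most like Bin2 (r = 0.97), Pstpip1 (0.96) and Itgb2 (0.95), and Rgs19 like Actr3 (0.93), Cyba (0.92) and Sh3bgrl3 (0.90). Rgs1 was most like Ms4a4c (0.94), Ly86 (0.91) and Ctss (0.90). Rgs4 was most like Serpina3f (0.90), Serpina3g (0.88) and Ehd3 (0.87), and Rgs16 like Gm26669 (0.87), Adm (0.87) and Zfp36l1 (0.86). Rgs3 was most like Gm42418 (0.95), Lars2 (0.94) and Plxna2 (0.94). Rgs2 (Rel at 0.85, Birc3 at 0.79 and B630005N14Rik at 0.78) and Rgs10 (Cs at 0.85, Bag1 and Ppm1g at 0.81) had the lowest values of the 8 genes measured this way. Rgs5 and Rgs20 reached 10 CPM in no class in both mice and were not measured.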

How the data were processed

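The authors deposited whole-number UMI counts for every feature and barcode, made with Cell Ranger 3.0.0 per the file headers, and the processing notes of the submitters name mm10. The features included 8 reporter or recombinase sequences. The annotation release and the use of strand were not given in the sources used here. The libraries held 54940400 and 88790688 UMIs. A barcode was kept as a cell if it had 1000 genes or more and no more than 15% of its UMIs were mitochondrial. Clustering used the 2000 most variable genes, leaving out mitochondrial, Rgs, reporter and listed genes (immediate early genes stayed), 30 components, 15 neighbours and leidenalg 0.10.2 (scanpy 1.11.5) at resolution 0.5. A cluster took the class with the most raised markers (1.5-fold, in 10% of its cells, at least 3). Doublets were kept: Scrublet called 6 and 3 cells, too few to have worked. For shares, each cell was thinned to 2000 UMIs, and 6 shallower cells in Mouse #1 and 21 in Mouse #2 were dropped. Intervals (95%) and floors (3 counts) cover counting error only.

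Counts were summed per mouse and class and tested with edgeR 4.0.16 in R 4.3.3 (quasi-likelihood, TMM, filterByExpr, two-sided, Benjamini-Hochberg over all tested features), calling adjusted p under 0.05. The SE is the absolute log2 fold change over the square root of F. Without the block, p-values rest on the spread between these 2 mice, pooled over all groups of a fit. With the mouse as a block, they rest on the spread left after the difference between the mice is taken out. On simulated counts for reticular-like against preosteoblast-like cells (13042 features), 100% of changes of 2 and 93% of changes of 1 on the log2 scale were recovered, and for myeloid-like against lymphoid-like cells (11415 features) 99% and 57%. The mouse as a block was the paired alternative, since both sums of a pair came from 1 animal, and deviations of sums of the same mouse correlated at 0.09 to 0.51 across features. The other alternatives were DESeq2 1.42.0, no filter on low counts, library totals, other cell limits, resolution 1.0, doublet removal, a lower tdTomato threshold, single mice, and 2 sets of cells left out, these last chosen after seeing the data. Named genes were the 10 members, the 3 called genes of each list with the largest change, mural and immediate early genes where a member moved with them, and the 3 genes most like each member. The members and lists were chosen with earlier results of these data known. The promoter windows are from RefSeq, and the matches were read on both strands.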

Additional observations from a re-analysis of the deposited data

Results flagged for a closer look

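Rgs5 stood at 529 CPM in unnamed cluster 12 of Mouse #1, in cells that entered no comparison, above the 73.2 CPM of the highest named class of that mouse. The cluster held 852 Rgs5 UMIs in 66 cells, and 848 of them were in 1 cell. In Mouse #2 the same cluster had 1.66 CPM.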

How the results depend on the processing

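Over 68 member-and-comparison pairs, 628 of 684 values under alternatives with an adjusted p kept their direction and their side of the threshold, 23 gained a call, 9 lost one and 24 changed sign. Of 136 ratios from a single mouse, which have no test, 10 had the opposite sign to the value over both mice, and none of these 10 belonged to a call. The cause was not tested. Without the filter on low counts, 6 of 10 tested members differed between periosteal-like and reticular-like cells, where 3 of 8 had. That fit called 3836 of 19294 features, against 2731 of 13042 with the filter. With stricter cell limits (2000 genes, 10% mitochondrial UMIs), 3 of 6 tested members differed between myeloid-like and lymphoid-like cells, where 5 of 7 had. That fit called 3443 of 11144 features, against 4347 of 11415. With the mouse as a block (paired fit), 2 members were called between tdTomato-positive and tdTomato-negative cells where 0 had been, and beyond the 7 calls given with the results the block changed no other call of a member. Over all features that comparison called 0, 325 with the block, 81 without the filter, 5 by DESeq2 and 1 with the tdTomato threshold at the 95th percentile, and myeloid-like against lymphoid-like cells called 4347, or 6908 with library totals.

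Rgs5 changed sign most often. With the stricter cell limits it was 2.68 (endothelial-like against stromal), -3.75 (blood against stromal), -6.43 (blood against endothelial-like, a call opposite to the main one), 0.72 (reticular-like against preosteoblast-like) and 2.55 (periosteal-like against reticular-like). With 500 genes and 20% it was 2.79, -0.66 and -3.45 in the first 3 of these. Without the 13 cells of 10 or more Rgs5 UMIs it was 0.0157, -2.03, -2.04 and 1.85 in the first 4 and 0.14 for tdTomato. With doublet removal it was -0.67 for blood against stromal cells. For reticular-like against preosteoblast-like cells edgeR called it at 3.66 at resolution 1.0 (adjusted p = 9.78e-04). Without the filter on low counts edgeR called the same comparison in the opposite direction, at -1.08 (adjusted p = 3.95e-07). Rgs2 turned to 0.0212 by DESeq2 (blood against stromal), and to -0.37 with library totals and -0.36 at resolution 1.0 (myeloid-like against lymphoid-like). Among sparse values, Rgs1 turned to 1.87 by DESeq2 and Rgs18 to -5.21 with the stricter limits (endothelial-like against stromal, where Rgs18 was called at 2.79 with 500 genes and 20%, adjusted p = 0.00495), Rgs20 to 2.91 (blood against endothelial-like) and Rgs1 to 1.57 (myeloid-like against erythroid-like) with doublet removal, and Rgs19 to 0.0156 without cluster 3 and 0.0325 at the 95th percentile (tdTomato).

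The calls that a test lost were Rgs19 in endothelial-like against stromal cells (2 settings), Rgs2 and Rgs5 in blood against endothelial-like cells, and Rgs3 in myeloid-like against lymphoid-like or erythroid-like cells. Rgs1 in myeloid-like against lymphoid-like cells fell below the filter with the stricter limits and was not tested there. The stricter limits moved the highest level of Rgs2 from lymphoid-like to reticular-like cells. They also moved that of Rgs5 from macrophage-like to endothelial-like cells, at a mean of 102 CPM. With 500 genes and 20% the highest Rgs5 mean was in endothelial-like cells as well (94.9 CPM). Leaving out 1 mouse leaves no spread to test, and the class with the highest level stayed the same for 8 to 10 of 10 members by level (without Mouse #2, Rgs4 and Rgs5 moved) and for 10 of 10 by share of cells.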
